A study of Mus musculus with 27 samples.

Results

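The 10 genes described here act in collagen maturation: the lysyl oxidases Lox, Loxl1, Loxl2, Loxl3 and Loxl4, the lysyl hydroxylases Plod1, Plod2 and Plod3, the prolyl 4-hydroxylase catalytic subunit gene P4ha1, and Serpinh1, which encodes the collagen chaperone HSP47. They were taken by symbol, and all 10 were found among the 42375 gene rows of the bulk count tables and the 32285 genes of the single-cell matrices. RNA had been measured in 27 mouse samples in 10 groups, all on a C57BL/6 background and all after 28 days of infusion with angiotensin II (Ang II), a pressor peptide used to bring about hypertension and vascular fibrosis in mice. Bulk libraries compared the genotypes labelled TKO and Cre in 3 tissues: 3 TKO with 3 Cre libraries of non-stripped aorta, 2 TKO with 4 Cre libraries of stripped aorta, and 3 TKO with 3 Cre libraries of fibroblasts isolated from the aorta. A further 5 came from non-stripped aorta of TKO mice that received IgG (3) or an IL-9 monoclonal antibody (2) with the Ang II. The single-cell groups were digested non-stripped aorta (2 Cre, 2 TKO). Every mouse of the antibody comparison was labelled TKO, so it has no Cre counterpart. The labels do not say what Cre and TKO stand for, which promoter drives a Cre, what stripping removed, how fibroblasts were isolated or whether animals were pooled. The series title places the question in a KLF10 and IL-9 axis of CD4+ T cells, and the comparisons ask what the genotype and the antibody change in the vessel and in its fibroblasts.

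Collagen chains are modified in the endoplasmic reticulum before they leave the cell. Prolyl 4-hydroxylases hydroxylate proline, which stabilises the triple helix, lysyl hydroxylases hydroxylate lysine, and HSP47 binds the folded procollagen on its way to the Golgi. Outside the cell, lysyl oxidases oxidise lysine and hydroxylysine, from which the cross-links of collagen and elastin fibres form. In arteries this cross-linked matrix carries the wall tension, and it stiffens in fibrosis.

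Bulk libraries held 17179257 to 38633457 counts. Of the single-cell barcodes, 14489 (Cre 1), 6533 (Cre 2), 15365 (TKO 1) and 7425 (TKO 2) were kept as cells, at medians of 2768, 1683, 1593 and 1409 unique molecular identifiers (UMIs) per cell, and 12 to 68 kept barcodes were shared between pairs of libraries (0.184% to 0.552% of the smaller library's cells). The gene named in the title, Klf10, was read in non-stripped Cre aorta at 1049, 943 and 1400 counts and in non-stripped TKO aorta at 822, 696 and 0 counts, so TKO replicate 3 stands apart from the other 2 libraries with that label. In the other TKO libraries it was read at 1005 and 616 counts in stripped aorta (849 to 1887 in Cre), 1890 to 2439 in fibroblasts (1922 to 2746 in Cre) and 381 to 1022 in the antibody table. The labels do not say in which cells the gene should be missing. Nothing in the labels says whether replicates came from separate mice, and p-values measure only the spread between these samples.

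Promoter sequence in the RefSeq table (GRCm38.p6) was matched for 5 of the 10 genes: Plod1, Plod3, Serpinh1, P4ha1 and Loxl4. The windows of 3 are printed, from the 250 bases before the annotated start, to set Serpinh1 and Plod1, which were lower after anti-IL-9 (below), beside P4ha1, which did not pass that test. Capitals mark ACGTG on either strand, 1 form of the core of the site bound by hypoxia-inducible factors, which also lies inside the E-box CACGTG. Another form of that core, GCGTG, was not searched or marked, and its letters can be read in the Plod1 and P4ha1 windows.
Serpinh1, minus strand, chr7:99353240-99353489: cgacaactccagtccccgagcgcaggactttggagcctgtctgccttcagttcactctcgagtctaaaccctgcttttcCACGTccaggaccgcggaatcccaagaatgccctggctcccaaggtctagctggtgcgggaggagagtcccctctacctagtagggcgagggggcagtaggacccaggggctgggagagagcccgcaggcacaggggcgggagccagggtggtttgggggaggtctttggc
Plod1, minus strand, chr4:147936777-147937026: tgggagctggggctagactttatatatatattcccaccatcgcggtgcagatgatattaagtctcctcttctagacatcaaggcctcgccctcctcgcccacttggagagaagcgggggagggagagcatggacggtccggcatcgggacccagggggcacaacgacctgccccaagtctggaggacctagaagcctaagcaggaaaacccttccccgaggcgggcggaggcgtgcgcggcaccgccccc
P4ha1, plus strand, chr10:59323046-59323295: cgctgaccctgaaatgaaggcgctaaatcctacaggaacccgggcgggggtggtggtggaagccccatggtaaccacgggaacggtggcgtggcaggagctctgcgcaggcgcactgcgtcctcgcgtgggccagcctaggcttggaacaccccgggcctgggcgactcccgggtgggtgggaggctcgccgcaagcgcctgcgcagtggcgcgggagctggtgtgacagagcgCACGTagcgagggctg
The form ACGTG lay 171 bases before the start in Serpinh1 and 16 bases before it in P4ha1, and was not in the Plod1 window. It was also in the Plod3 window, and it was found in 16.6% of the 32851 promoters of the table. The letters of a paired heat shock element, GAANNTTC, were in none of the 5 windows and in 6.69% of promoters. The GC box GGGCGG, searched on both strands and overlapping neither of the other motifs, was in 4 of the 5 (Plod1, Serpinh1, P4ha1 and Loxl4) and in 32.7% of promoters. These matches describe letters in these windows and were not tested against the expression values.

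Serpinh1 was the most abundant of the 10 in every bulk table. Levels are compared between genes as CPM (counts scaled to a common library total) per kilobase of exon, using the exon length of each gene in the GENCODE vM21 annotation of GRCm38. On this scale Serpinh1 averaged 105 CPM per kb in non-stripped aorta, 713 in stripped aorta, 606 in fibroblasts and 146 in the antibody table, and in each table its libraries did not overlap those of the next gene. Loxl4 was lowest in 3 tables, at 0.199, 1.86 and 0.514 CPM per kb in non-stripped aorta, stripped aorta and the antibody table. In fibroblasts the lowest was Loxl2 (7.09 CPM per kb), below Loxl4 (16.9 CPM per kb) without overlap.

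The order of the others differed from table to table. In non-stripped aorta Loxl1 was second (16.3 CPM per kb), ahead of Plod1 (11.0), Plod3 (10.6) and P4ha1 (9.34), the last 3 overlapping, and Lox was sixth at 5.58 CPM per kb. In stripped aorta Loxl1 (218 CPM per kb) and Lox (148 CPM per kb) overlapped each other and lay above the rest, and in fibroblasts Lox was second at 243 CPM per kb, overlapping Loxl1 at 152. Loxl3 and Plod3 were at 119 and 110 CPM per kb in fibroblasts, against 1.44 and 10.6 in non-stripped aorta. The tables were made from separate sets of libraries, so tissue and table cannot be told apart, and no test was run across them.

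**Figure D1:**
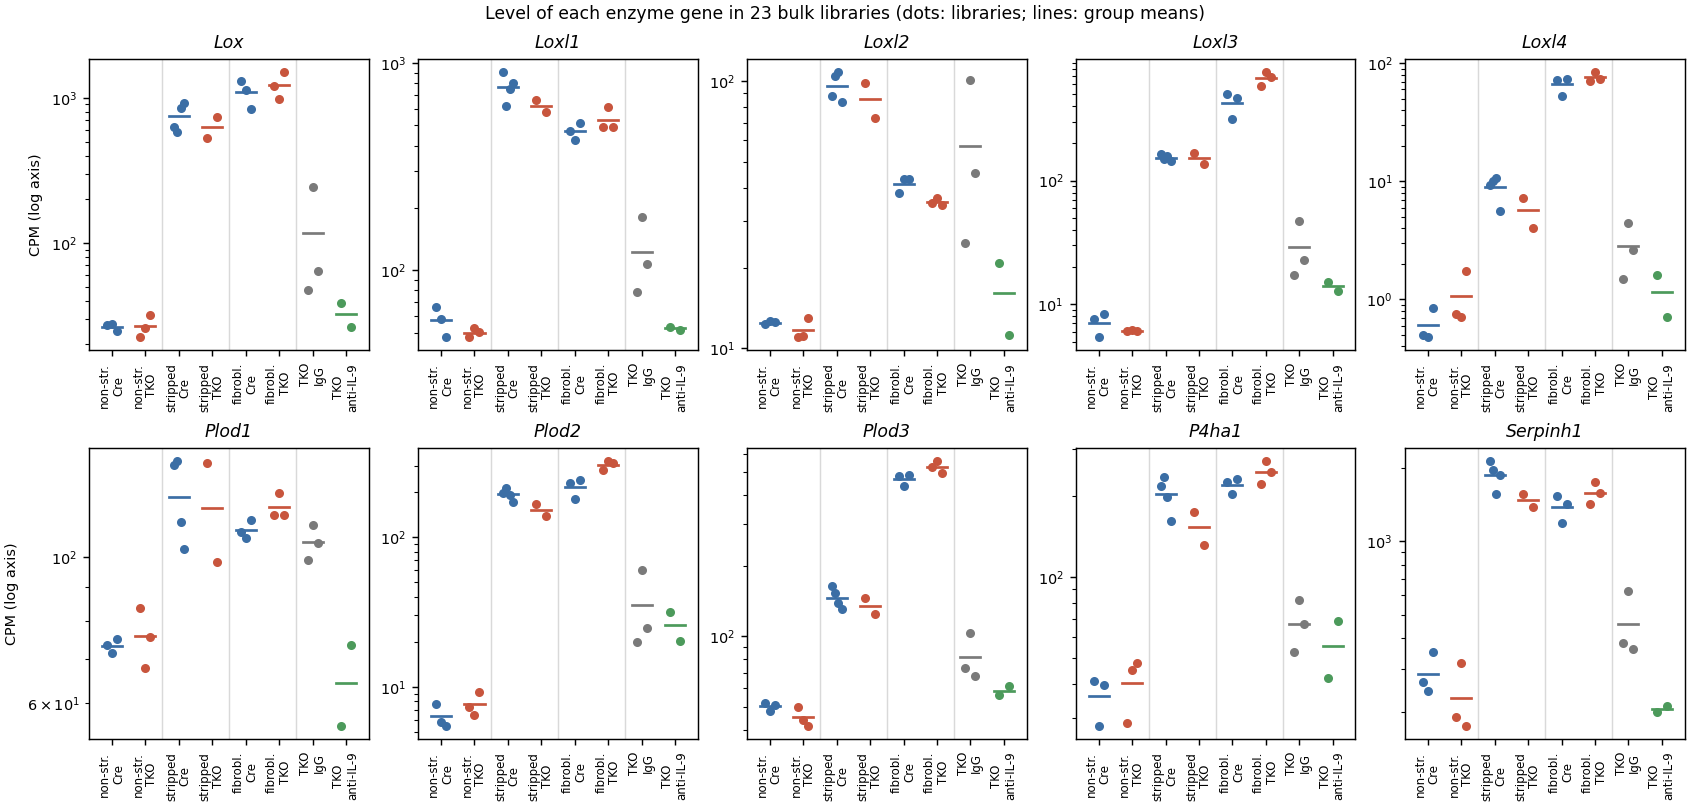
CPM (log axis) of each of the 10 genes in the 23 bulk libraries, by group; dots are libraries and lines are group means. Serpinh1 runs from 175 to 352 CPM in non-stripped aorta and from 1385 to 2132 CPM in stripped aorta, and IgG replicate 2 holds the highest dot of the antibody table for all 10 genes.

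The antibody comparison was the one bulk comparison in which any of the 10 genes passed the test. Loxl1, Plod1 and Serpinh1 fell in TKO aorta given anti-IL-9, 3 of the 10 genes, and none rose. Calls are adjusted p below 0.05 by edgeR's quasi-likelihood test with Benjamini-Hochberg adjustment over all genes tested. The background was high: 11.0% of the 16463 genes tested fell and 21.0% rose, 32.1% in all. The median log2 fold change of the 10 genes was −1.10 against −0.01 over all genes, and all 10 had a log2 fold change below 0, as did 51.0% of all genes.

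Among the lysyl oxidases, Loxl1, known for its part in elastic fibre upkeep, was at 78.7, 180 and 107 CPM with IgG and at 53.5 and 51.2 CPM with anti-IL-9. Every antibody library was below every IgG library. The log2 fold change was −1.22 ± 0.33 (standard error, as throughout; adjusted p = 0.0292, edgeR). Lox, which encodes the founding lysyl oxidase of the family, was at 47.1, 243 and 64.0 CPM with IgG and 38.6 and 26.2 CPM with anti-IL-9, and Loxl2, which acts on the collagen IV of basement membranes, at 24.7, 101 and 45.3 against 20.9 and 11.2 CPM. IgG replicate 2 was far above the other IgG libraries for both, and neither passed (Lox −1.86 ± 0.71, adjusted p = 0.0859, Loxl2 −1.83 ± 0.59, adjusted p = 0.0541, edgeR). Loxl3 was at 17.3, 47.1 and 22.8 against 15.2 and 12.8 CPM (−1.05 ± 0.41, adjusted p = 0.0925, edgeR). Loxl4, at 1.49, 4.40 and 2.63 against 1.60 and 0.711 CPM, overlapped between the groups (−1.27 ± 0.56, adjusted p = 0.126, edgeR).

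Plod1, whose enzyme hydroxylates lysine in the helical part of collagen, was at 98.9, 112 and 105 CPM with IgG and 55.4 and 73.4 CPM with anti-IL-9. The IgG libraries lay close together and both antibody libraries lay below them (−0.71 ± 0.15, adjusted p = 0.0130, edgeR). Plod2, whose enzyme hydroxylates lysine in the telopeptides of fibrillar collagen, was at 19.9, 60.5 and 24.8 against 31.6 and 20.2 CPM, with overlapping groups (−0.44 ± 0.47, adjusted p = 0.509, edgeR). Plod3, which encodes a lysyl hydroxylase that also glycosylates hydroxylysine, was at 73.2, 103 and 67.8 against 56.0 and 61.3 CPM (−0.47 ± 0.20, adjusted p = 0.109, edgeR). The lysyl hydroxylase genes thus did not all pass, and Plod2 was the one with an antibody library above an IgG library. P4ha1 overlapped too, at 52.6, 81.9 and 66.8 against 42.0 and 68.6 CPM (−0.28 ± 0.26, adjusted p = 0.434, edgeR). Serpinh1 was at 382, 623 and 362 CPM with IgG and at 200 and 211 CPM with anti-IL-9, so both antibody libraries lay far below the lowest IgG library (−1.15 ± 0.26, adjusted p = 0.0160, edgeR).

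In 7 of the 10 genes every antibody library lay below every IgG library, a separation that 27.7% of all genes tested showed in that direction. IgG replicate 2 was the highest of the 5 libraries for all 10 genes. Without it the Lox difference was −0.79 (adjusted p = 0.0401; 4.6e-24 to 0.274 over the alternatives, edgeR or DESeq2) and that of Plod2 was 0.19. Without anti-IL-9 replicate 1 none of the 10 genes passed (adjusted p = 0.115 for Loxl1, 0.0519 for Plod1 and 0.0782 for Serpinh1), and without anti-IL-9 replicate 2 Plod1 alone did (0.111 for Loxl1 and 0.0575 for Serpinh1). Leaving out IgG replicate 3 took Loxl1 to an adjusted p of 0.0590, and leaving out IgG replicate 1 raised the calls to 6, with Lox, Loxl2 and Loxl3 added. With no filter on low counts 9 of the 10 genes passed, against 24.6% of all genes, and in a joint fit of all 23 libraries 8 did, against 34.3%. In these fits over the alternatives the adjusted p ran from 3.9e-11 to 0.115 for Loxl1, from 0.000168 to 0.0519 for Plod1 and from 5.89e-08 to 0.0782 for Serpinh1.

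**Figure D2:**
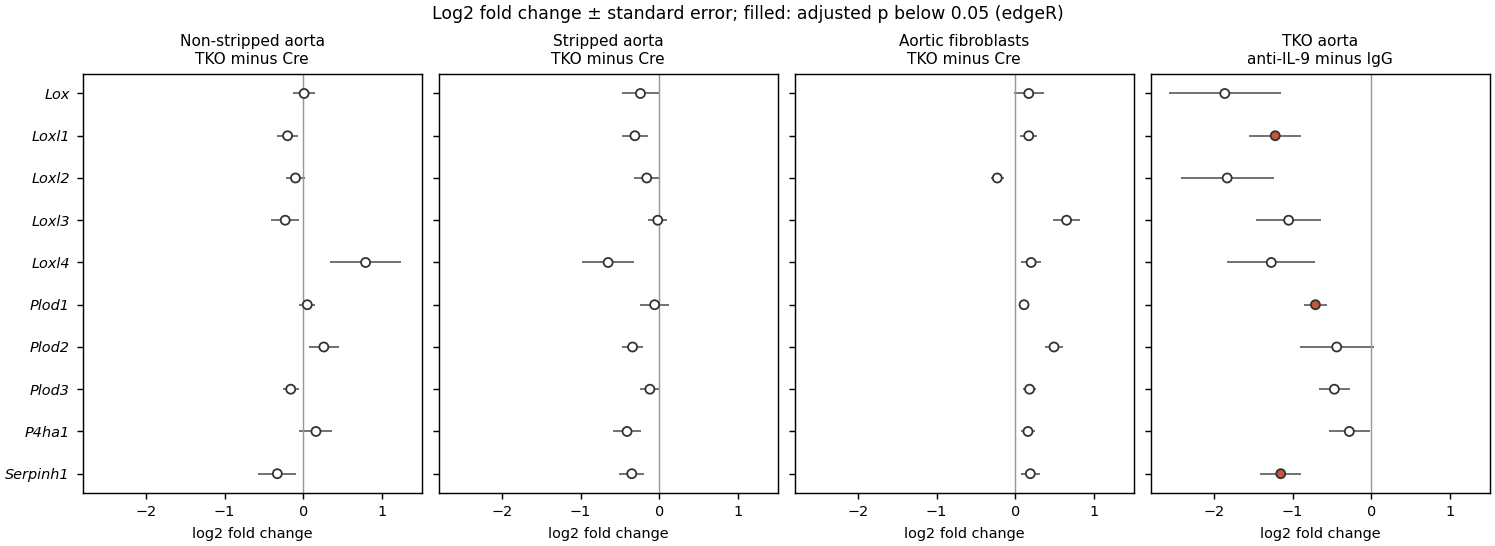
Log2 fold change (horizontal axis) ± standard error of the 10 genes in the 4 bulk comparisons; filled points passed edgeR's test at an adjusted p below 0.05. Loxl1, Plod1 and Serpinh1 are filled in the antibody panel, where all 10 points lie below 0, and no point is filled in the 3 genotype panels.

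Markers of the aortic cell types changed with the antibody as well. Summed over 8 fibroblast markers the level was 2679 to 3675 CPM with IgG and 1320 to 1557 CPM with anti-IL-9, and 6 of the 8 fell. All 9 macrophage markers fell (440 to 782 against 166 to 195 CPM), as did 6 of 6 mesothelial (133 to 305 against 4.26 to 7.01 CPM) and 6 of 7 endothelial markers (783 to 925 against 375 to 444 CPM). Smooth muscle markers rose in 5 of 7 (458 to 787 against 1394 to 1425 CPM), Schwann cell markers in 6 of 6 (90.3 to 135 against 353 to 400 CPM), neuron markers in 6 of 6 (174 to 400 against 2789 to 2842 CPM) and skeletal muscle markers in 7 of 8 (10.3 to 43.8 against 177 to 243 CPM). Of all genes tested 11.0% fell and 21.0% rose. No marker of these lists was at 0 in all 5 libraries. The part of these shifts in the enzyme results was not tested, and in bulk tissue fewer cells of a type and less RNA per cell cannot be told apart.

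A further 6 lists were read: collagen and elastin substrates, other collagen biosynthesis genes, heat shock genes, endoplasmic reticulum chaperones, hypoxia targets and TGF-beta targets. Of 8 substrate genes, 4 fell and none rose: Col3a1 (−2.46, adjusted p = 0.0176), Col1a2 (−1.92, 0.0272), Col1a1 (−2.17, 0.0392) and Col4a1 (−1.05, 0.0458, all edgeR), with a list median of −1.69. Of 29 further collagen biosynthesis genes tested, 13 fell and 1 rose (median −0.56). Those with the smallest p were Fkbp9 (177 CPM ± 24.2 with IgG, n = 3, and 88.4 CPM ± 1.48 with anti-IL-9, n = 2) and Fkbp7 (−0.99), peptidyl-prolyl isomerases of the endoplasmic reticulum, Pcolce2 (−0.97), an enhancer of procollagen processing, and Crtap (−0.80), a subunit of the prolyl 3-hydroxylation complex. The gene that rose was Tll2, a tolloid-like protease, from 0.320 CPM ± 0.0932 (SD, n = 3) to 2.10 CPM ± 0.0325 (n = 2). It passed the filter on low counts only through the antibody libraries, where it is high. Of 11 heat shock genes 5 rose and none fell (median 0.52), with Hsp90aa1 at 1.45, Hspa1a at 1.68, Bag3 at 1.02 and Hsph1 at 0.97, while of 15 endoplasmic reticulum chaperone genes 4 fell and none rose (Herpud1 −0.55, Calr −0.52, Pdia6 −0.47 and Creld2 −0.42; median −0.29). Of 15 hypoxia targets 2 rose and 3 fell, with Ndrg1 (0.51) and Slc2a1 (0.44) up and Hk2 (−0.74), Vegfa (−0.53) and Pdk1 (−0.52) down. Of 11 TGF-beta targets 1 rose and 2 fell, with Tgfb1i1 (0.56) up and Ltbp2 (−1.48) and Tgfbi (−1.06) down. Over all genes 21.0% rose and 11.0% fell, and the median was −0.01. The shares that rose among the hypoxia and TGF-beta targets were below that of all genes, and the shares that fell were above it.

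In isolated aortic fibroblasts none of the 10 genes passed between TKO and Cre, where 0.0638% of the 15673 genes tested did, but Loxl3 and Plod2 had the largest differences. At an unadjusted p below 0.05 there were 3 of the 10, against 12.1% of all genes. DESeq2 called 2, against 2.66% of all genes, and edgeR with no filter on low counts also called 2, against 2.26%. Loxl3, a lysyl oxidase needed for skeletal and palate development, was at 502, 316 and 465 CPM in Cre and at 584, 750 and 684 CPM in TKO. All 3 TKO libraries lay above all 3 Cre libraries (0.65 ± 0.17, adjusted p = 0.256, edgeR). Plod2 was at 229, 178 and 241 CPM in Cre and 282, 322 and 310 CPM in TKO, again without overlap (0.49 ± 0.12, adjusted p = 0.233, edgeR). DESeq2 gave adjusted p = 0.0114 for Loxl3 and 0.0127 for Plod2, and over the alternatives the adjusted p ran from 0.00204 to 0.640 and from 0.00634 to 0.645.

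Plod3 (479, 436 and 484 against 527, 558 and 498 CPM) and Plod1 (109, 107 and 114 against 116, 125 and 116 CPM) were also separated upward, by smaller amounts (0.18 ± 0.08 and 0.11 ± 0.06). Loxl2 was the exception among the 10, at 38.0, 43.0 and 43.0 CPM in Cre and 35.1, 36.4 and 34.3 CPM in TKO, all TKO libraries below all Cre libraries (−0.23 ± 0.08, adjusted p = 0.315, edgeR). Of the 10 genes, 4 were thus separated upward and 1 downward, as were 8.86% and 8.45% of all genes tested. Lox, at 1300, 1134 and 844 against 1207, 975 and 1499 CPM, and Serpinh1, at 1538, 1184 and 1425 against 1423, 1744 and 1574 CPM, overlapped between genotypes. The median of the 10 was 0.18 against 0.01 over all genes, and 9 of the 10 lay above 0, as did 51.9% of all genes. The adjusted p of the 10 ran from 0.233 to 0.748.

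The label of these libraries was checked against markers. Pdgfra was at 521 to 682 CPM and Dcn at 135 to 217 CPM, and the 8 fibroblast markers summed to 1552 to 1684 CPM in Cre and 1574 to 1819 CPM in TKO. Smooth muscle markers summed to 1263 to 2255 CPM in Cre and 2061 to 2570 CPM in TKO, and Mki67, a gene of dividing cells, was at 115 to 215 CPM. Skeletal muscle markers summed to 524 to 823 CPM in Cre and 384 to 1623 CPM in TKO (8 of 8 above 0, none called). Dendritic cell markers summed to 546 to 860 CPM in Cre and 738 to 811 CPM in TKO. Macrophage markers had a log2 fold change below 0 in 9 of 9 (149 to 200 CPM in TKO against 249 to 563 in Cre), with none called, and their part in the enzyme differences was not tested. None of the genes in the other lists passed. Col3a1 was at 1319 CPM ± 430 in TKO against 669 CPM ± 301 in Cre (0.98 ± 0.34, adjusted p = 0.322), and P4ha3, another prolyl 4-hydroxylase subunit gene, at 68.6 CPM ± 5.32 in TKO against 39.7 CPM ± 14.0 in Cre (0.79 ± 0.23, adjusted p = 0.273, n = 3 per group, edgeR).

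In stripped aorta all 10 genes had a log2 fold change below 0 in TKO, as did 49.8% of all genes, and none passed (0.0240% of 16688 genes did). At an unadjusted p below 0.05 there was 1 of the 10, against 13.8% of all genes, and DESeq2 called none, against 3.46% of all genes. Plod2 was at 197, 212, 192 and 170 CPM in Cre and at 166 and 138 CPM in TKO, the one gene of the 10 whose groups did not overlap (11.6% of all genes were separated downward; −0.34 ± 0.13, adjusted p = 0.316, edgeR). P4ha1, at 218, 235, 198 and 162 against 174 and 132 CPM (−0.41 ± 0.18, adjusted p = 0.374, edgeR), and Serpinh1, at 2132, 1949, 1557 and 1862 against 1567 and 1385 CPM (−0.35 ± 0.16, adjusted p = 0.405, edgeR), overlapped narrowly. TKO replicate 2 was the lower of the TKO libraries in 9 of the 10 genes, Lox excepted. Without it the differences of Loxl2 (0.04), Loxl3 (0.13) and Plod1 (0.17) were above 0. The median of the 10 was −0.27 against 0.00 over all genes.

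Eln, the gene of elastin and another lysyl oxidase substrate, was at 4578 CPM ± 1836 in stripped Cre aorta (n = 4) and 1918 CPM ± 828 in TKO (n = 2; −1.26 ± 0.43, adjusted p = 0.285, edgeR). Bnip3, a hypoxia target, had the smallest p of the lists, at 48.7 CPM ± 4.46 and 89.8 CPM ± 0.534 (0.88 ± 0.10, adjusted p = 0.0718, edgeR). No gene of the 6 lists passed. Mesothelial markers were below 0 in 6 of 6 (61.4 to 164 CPM in Cre and 23.7 to 27.3 CPM in TKO) and smooth muscle markers in 7 of 7 (6545 to 7642 and 3955 to 5985 CPM), while brown adipocyte markers were above 0 in 6 of 6 (75.2 to 297 and 655 to 990 CPM). None of these markers passed, and their part was not tested.

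In non-stripped aorta none of the 10 genes was called by edgeR or DESeq2, where edgeR called 0.119% of 15162 genes and DESeq2 5.25%. None was at an unadjusted p below 0.05 in edgeR, against 17.9% of all genes. In none of the 10 were the groups separated, while 25.5% of all genes were, and the median was −0.04 against −0.02. Serpinh1 was at 264, 243 and 352 CPM in Cre and 191, 317 and 175 CPM in TKO, with TKO replicate 2 inside the Cre range (−0.33 ± 0.24, adjusted p = 0.484, edgeR). Loxl4 was at 0.504, 0.479 and 0.845 against 0.753, 0.712 and 1.74 CPM, and TKO replicate 3, the library without Klf10 counts, was the highest (0.79 ± 0.45, adjusted p = 0.380, edgeR). Without that library the Loxl4 difference fell to 0.27, the lowest of its alternatives. The filter on low counts required 0.512 CPM, which Loxl4 reached in 3 TKO libraries and 1 Cre library. Lox was at 27.3, 27.6 and 24.7 against 22.4, 26.0 and 32.0 CPM (0.01 ± 0.14). Eln, at 136 CPM ± 38.0 in Cre and 74.2 CPM ± 10.4 in TKO, had the smallest p of the 6 lists (−0.87 ± 0.21, adjusted p = 0.0877, n = 3 per group, edgeR), and none of their genes passed. Skeletal muscle markers summed to 333 to 1162 CPM in Cre and 3571 to 14309 CPM in TKO (8 of 8 above 0), and smooth muscle markers to 342 to 582 and 176 to 252 CPM (7 of 7 below 0). None was called, and their part was not tested.

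Whether the genotype effect differed between tissues was tested in models over the tables. None of the 10 genes passed in any of the 3 contrasts, where 0.00571% (non-stripped against stripped), 0.182% (fibroblasts against non-stripped) and 0.0890% (fibroblasts against stripped) of genes did. Plod2 came closest, with an effect 0.86 ± 0.19 higher in fibroblasts than in stripped aorta (adjusted p = 0.0965, edgeR), since its difference was 0.49 in the former and −0.34 in the latter. At an unadjusted p below 0.05 the genes were Loxl4 and Plod2 in the first contrast, Loxl3 and Plod3 in the second, and Loxl1, Loxl3, Loxl4, Plod2, P4ha1 and Serpinh1 in the third. Of all genes 18.2%, 14.9% and 15.3% were at that threshold, and each pair of contrasts shares the libraries of 1 tissue. DESeq2 was not run on these contrasts.

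The single-cell libraries showed in which classes of aortic cells these RNAs were read. After 1018 cells with a high doublet score were removed, 42794 cells formed 49 clusters, found without the 10 genes and the collagen lists, and 32 clusters were named from marker genes, with 12162 cells left unnamed. The classes are called fibroblast-like and so on, and 13 of them had at least 20 cells in every library. Levels are UMIs of the gene scaled to the class total as CPM (UMI CPM), averaged over the 4 libraries, and serve to compare classes for 1 gene. They describe these clusters, and no test was run between classes. No correction for RNA from other cells was made, and its part in the class levels was not tested. The fibroblast marker Dcn averaged 1463 UMI CPM in Schwann-like and 715 in endothelial-like cells, against 10120 in fibroblast-like cells.

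Loxl1 was highest in fibroblast-like cells, at 553, 375, 408 and 360 UMI CPM in Cre 1, Cre 2, TKO 1 and TKO 2, and none of these values overlapped the next class, smooth muscle-like cells (mean 209 UMI CPM). Lox had a different order: smooth muscle-like cells came first (461, 185, 362 and 146 UMI CPM), then fibroblast-like (246, 91.8, 297 and 142) and endothelial-like cells (249, 40.5, 146 and 52.0), with overlapping ranges. For Lox the libraries Cre 1 and TKO 1 were above Cre 2 and TKO 2 in all 3 classes, and the spread between libraries was as wide as that between these classes. Loxl2 led in fibroblast-like cells (mean 141 UMI CPM, lowest 116), and lymphatic endothelial-like cells were second at 114, 67.7, 94.3 and 95.6 UMI CPM, far above the blood endothelial-like class at 9.81. Loxl3 was at 39.4 and 36.4 UMI CPM in fibroblast-like and smooth muscle-like cells, which overlapped, and at most at 12.1 elsewhere. Loxl4 was nearly unread, with 74 UMIs in fibroblast-like, 11 in smooth muscle-like and 10 in mesothelial-like cells and at most 3 in any other class.

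The lysyl hydroxylases differed among themselves. Plod2 was highest in smooth muscle-like (181 UMI CPM) and fibroblast-like cells (146 UMI CPM), which overlapped, and was at 4.93 UMI CPM in macrophage-like cells. For Plod1 the fibroblast-like class came sixth. The gene was at 89.6 UMI CPM in lymphatic endothelial-like, 68.6 in macrophage-like and 62.3 in endothelial-like cells, ranges that overlapped, and at 32.9 in fibroblast-like cells. In macrophage-like cells Plod1 hardly varied, at 75.0, 69.6, 67.8 and 61.7 UMI CPM, the lowest of which was above the highest fibroblast-like value of 40.9. Plod3 was nearly level over 6 classes, from 49.1 UMI CPM in lymphatic endothelial-like to 33.8 in macrophage-like cells, each overlapping the next.

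P4ha1 was spread widely too, at 118 UMI CPM in mesothelial-like, 104 in fibroblast-like, 98.9 in Schwann-like and 78.5 in macrophage-like cells, each overlapping the next. Serpinh1 was at 1007, 536, 1073 and 678 UMI CPM in fibroblast-like cells (mean 824), at 579 in mesothelial-like and at 430 in smooth muscle-like cells, and lowest in monocyte-like cells (38.6).

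**Figure D3:**
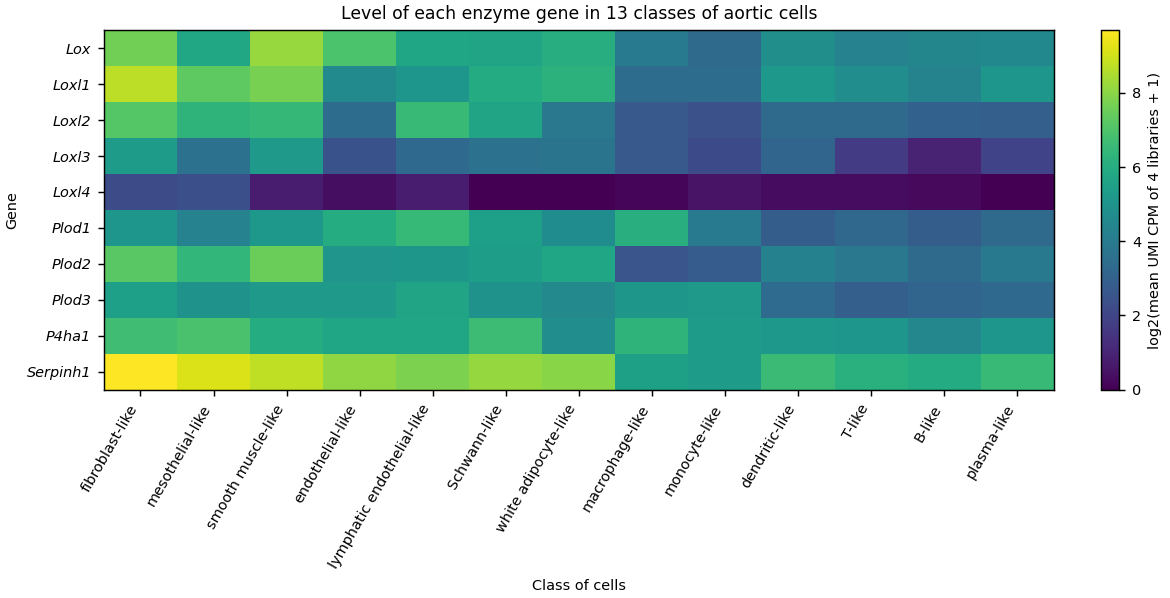
Log2 of the mean UMI CPM plus 1 (colour) of each gene (rows) in 13 classes of cells (columns); the mean is over 4 libraries. Loxl1, Loxl2 and Serpinh1 are brightest in fibroblast-like cells and Lox and Plod2 in smooth muscle-like cells, while Plod1 is at 68.6 UMI CPM in macrophage-like cells, against 32.9 in fibroblast-like cells.

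Profiles over the clusters were compared between the 10 genes. Over 43 clusters, as log2(UMI CPM + 1), Serpinh1 correlated at r = 0.91 with Plod2 and at 0.89 with Loxl1 and with Loxl2, but at 0.33 with Plod1 and 0.44 with Plod3, and Loxl1 correlated with Plod1 at 0.14. Plod1 and Plod3 correlated at 0.73 with each other. P4ha1 correlated at 0.65 with Serpinh1 and with Plod3 and at 0.57 with Plod1. Clusters come from the same 4 libraries and differ in depth, so these values are descriptions. Among 14414 genes compared, the nearest to Serpinh1 were Sparc (0.97), Nfib and Mpdz (0.95 each), and the nearest to Loxl1 were Ogn, Islr (0.95 each) and Col1a2 (0.94). Plod2 was nearest to Col5a2 (0.93), Ccdc80 and Col3a1 (0.92 each), Lox to Itgbl1 (0.89), Bgn (0.88) and Nox4 (0.86), Loxl2 to Olfml2b, Tnxb and Rbms3 (0.91 each), and Loxl3 to Mxra8, Ikbip (0.90 each) and Gpx7 (0.89). Plod1 was nearest to Pros1 (0.88), Trim47 and Raph1 (0.82 each), Plod3 to Lamp2 (0.82), Ifitm3 and Ifitm2 (0.81 each), and P4ha1 to the lysosomal genes Gaa and Ctsl (0.82 each) and to Rrbp1 (0.81). Loxl4 did not reach 10 UMI CPM in any of these clusters taken over the libraries, and its neighbours are not described.

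Within the fibroblast-like class the levels of the enzymes differed between clusters, which were found with no correction for library. Clusters 0 and 2 shared leading genes such as Dact2 and Gfpt2. Cluster 0 held 1295, 183, 349 and 167 cells of Cre 1, Cre 2, TKO 1 and TKO 2, and cluster 2 held 50, 490, 275 and 377. The part of the libraries in this split was not tested. Cluster 32, led by Mmp3 and Sfrp4, held the most Serpinh1 (1500, 1919, 1666 and 1023 UMI CPM, where Cre 2 had 9 cells), the most Plod2 (257, 433, 479 and 451) and the most Lox (951, 557, 516 and 436). Cluster 2, led by Akr1c18 and Dact2, held the least Serpinh1 (526, 385, 624 and 444 UMI CPM) and little Lox (86.7, 49.0, 84.9 and 38.1). Cluster 16, led by Dio2 and Hhip, had Lox at 513, 215, 458 and 236 UMI CPM, and cluster 0, led by Dact2 and Gfpt2, had the most Loxl1 (636, 520, 527 and 561) with Lox at 143, 68.3, 99.6 and 61.9. Lox and Loxl1 were thus highest in different clusters of the class. Cluster 8, which was not named and was led by Tnmd, Col11a1 and Thbs4, genes of tendon-like matrix, had Lox at 685, 375, 603 and 327 UMI CPM and held 52 and 138 Cre cells and 1191 and 600 TKO cells. Its top marker list was that of fibroblasts, with 8 of 8 markers detected. The name was withheld because 3 tendon or cartilage markers were among its leading genes, so its cells are not in the fibroblast-like class.

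**Figure D4:**
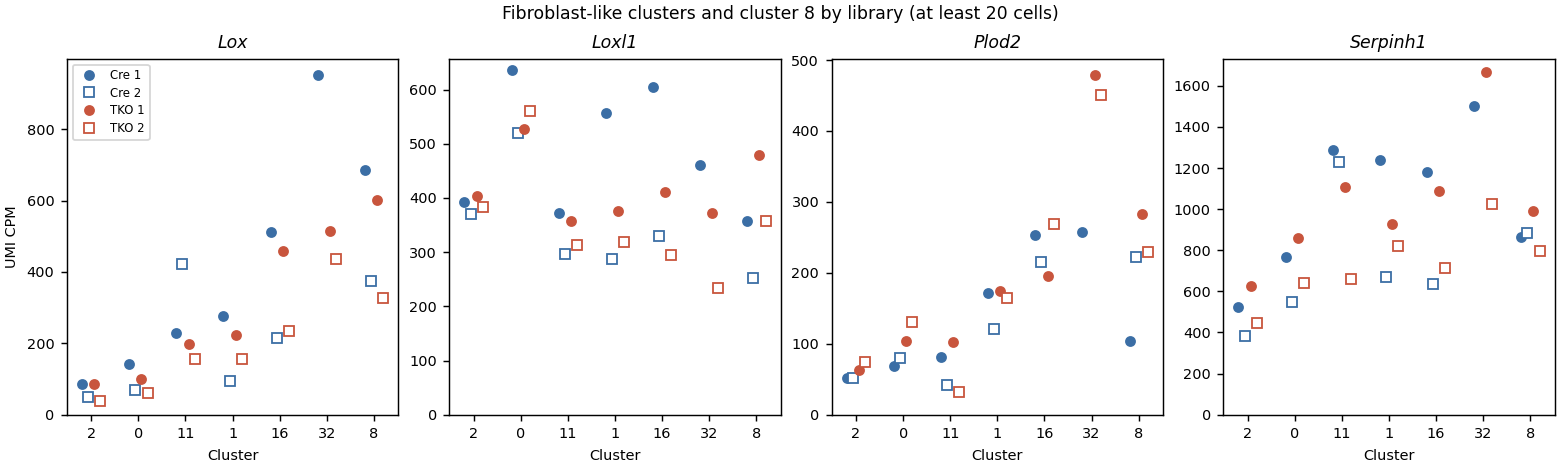
UMI CPM of Lox, Loxl1, Plod2 and Serpinh1 in each library (points) of 6 fibroblast-like clusters and the unnamed cluster 8, where the library had at least 20 cells. Plod2 runs from 52.0 to 74.6 UMI CPM in cluster 2 to 257 to 479 UMI CPM in cluster 32, and Loxl1 is highest in cluster 0.

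None of the 10 genes passed between TKO and Cre in fibroblast-like cells, where 0% of 11795 genes were called (2.54% had an unadjusted p below 0.05). Plod2 had the smallest p of the 10, at 112 and 90.8 UMI CPM in Cre and 213 and 170 UMI CPM in TKO, without overlap (0.88 ± 0.19, adjusted p = 1.00, edgeR). Loxl1, at 553 and 375 against 408 and 360 UMI CPM, and Loxl2, at 205 and 116 against 126 and 116 UMI CPM, overlapped between genotypes or nearly met on this scale (−0.30 ± 0.24 and −0.44 ± 0.26, adjusted p = 1.00 each, edgeR). On the TMM-scaled levels of the test both TKO libraries were below both Cre libraries for these 2 genes and above them for Plod2. They were also below for Loxl4 (−0.37 ± 0.46), which had 46 and 7 UMIs in Cre and 14 and 7 in TKO. Of all genes 12.7% were separated downward and 12.9% upward on that scale. The make-up of the class differed between libraries: cluster 32 held 2.77% and 0.833% of Cre and 18.4% and 6.57% of TKO cells, cluster 11 held 30.5% and 2.78% against 4.85% and 1.89%, and cluster 2 held 1.44% and 45.4% against 10.7% and 28.5%. Cluster by cluster, Plod2 was at 69.2 and 80.2 against 104 and 131 UMI CPM in cluster 0 and at 52.0 and 52.4 against 63.2 and 74.6 in cluster 2. In cluster 1 it was at 172 and 121 against 175 and 165 UMI CPM, in cluster 16 at 253 and 215 against 196 and 269, and in cluster 11 at 81.3 and 42.3 against 103 and 31.4. In cluster 32, where Cre 2 had too few cells for a test, it was at 257 and 433 against 479 and 451 UMI CPM. Both TKO libraries were thus above both Cre libraries in clusters 0 and 2 and not in clusters 1, 11 and 16. On the TMM scale 14.3% and 15.1% of all genes were separated upward in clusters 0 and 2. The TKO libraries were also above in cluster 32, where the Cre 2 value rests on 7 Plod2 UMIs in 9 cells. No share of all genes is given for that cluster. Over all cells of a library Plod2 was at 64.9 and 38.0 against 91.9 and 72.6 UMI CPM (0.66 ± 0.24, adjusted p = 1.00, edgeR), and none of the 10 was called there, where 0.159% of genes were. In cluster 8 none of the 9 genes tested passed, where 0% of 6847 genes were called, and Plod2 overlapped between genotypes (0.50 ± 0.41).

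In immune classes 3 of the genes were called higher in TKO. Over the 13 classes 76 tests were made and 7 passed, all higher, where 0.375% of 92083 gene tests passed. Serpinh1 rose in macrophage-like cells (14.5 and 18.6 UMI CPM in Cre, 99.3 and 46.3 in TKO; 2.32 ± 0.34, adjusted p = 0.00695, edgeR) and in B-like cells (18.6 and 14.2 against 147 and 65.5 UMI CPM; 2.59 ± 0.36, adjusted p = 0.00507, edgeR). It also rose in T-like cells (17.8 and 32.2 against 166 and 59.9 UMI CPM; 2.46 ± 0.45, adjusted p = 0.00570, edgeR) and in monocyte-like cells (10.5 and 11.3 against 94.8 and 37.9 UMI CPM; 2.66 ± 0.41, adjusted p = 0.0293, edgeR). Both TKO libraries were above both Cre libraries in each of the 4 classes, and TKO 1 was the highest in each. The share of all genes separated in this way is not given for these classes. Lox rose in macrophage-like (4.10 and 9.29 against 32.8 and 11.9 UMI CPM; adjusted p = 0.0424) and T-like cells (5.25 and 8.04 against 43.4 and 17.1 UMI CPM; adjusted p = 0.0490), and Loxl1 in B-like cells (4.85 and 3.54 against 45.5 and 21.8 UMI CPM; adjusted p = 0.0155, all edgeR). Loxl1 in B-like and Lox in T-like cells passed the filter on low counts only through the TKO libraries, with no Cre library at the 11.0 and 16.4 UMI CPM it required, so these 2 had to differ and the count of 7 supports nothing by itself. For Lox in macrophage-like cells 1 Cre library and 2 TKO libraries were at the 6.52 UMI CPM required in that class. The Cre libraries alone would not have passed the filter, so that call relied on the TKO libraries too. Of all genes tested, 1.42% were called higher in macrophage-like, 0.661% in B-like, 1.13% in T-like and 0.377% in monocyte-like cells.

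These counts were small, and genes that define fibroblasts moved with them. Dcn, the gene of a fibroblast proteoglycan, was at 73.6 and 144 UMI CPM in Cre and 808 and 460 in TKO in macrophage-like cells, and at 10449, 8002, 11614 and 10416 UMI CPM in fibroblast-like cells. Col1a1 and Col3a1 were called higher in all 4 immune classes, and Dcn in the macrophage-like and monocyte-like ones. Per 100 Dcn UMIs there were 19.7, 12.9, 12.3 and 10.1 Serpinh1 UMIs in macrophage-like cells, 14.0, 5.52, 14.4 and 9.86 in T-like cells and 9.64, 6.70, 9.24 and 6.51 in fibroblast-like cells. In B-like cells there were 46, 8, 184 and 30 Serpinh1 UMIs beside 303, 200, 1465 and 251 Dcn UMIs, and in monocyte-like cells 34, 9, 152 and 23 beside 245, 100, 1043 and 190. Both TKO ratios were below both Cre ratios in macrophage-like cells, and the ratios of the genotypes overlapped in the other 3 immune classes with a Serpinh1 call. The part of RNA from other cells in these results was not tested.

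Single libraries and cluster make-up touched several of these calls. Without TKO 1 the adjusted p was 1.00 for Serpinh1 in T-like (1.45) and monocyte-like cells (1.87), for Lox in macrophage-like cells (1.21) and for Loxl1 in B-like cells (2.27). Without Cre 1 it was 0.203 for Serpinh1 and 0.963 for Lox in T-like cells, 0.860 for Lox in macrophage-like cells and 0.0616 for Loxl1 in B-like cells. Over all alternatives the adjusted p of Serpinh1 ran from 1.71e-11 to 0.0238 in macrophage-like and from 1.09e-11 to 0.0440 in B-like cells, so these 2 calls held in each. The B-like class of Cre 1 was 96.3% cluster 12, while that of the other libraries was 97.6% to 100% cluster 23. Of macrophage-like cells cluster 3 held 82.4% and 59.0% in Cre and 31.1% and 41.6% in TKO.

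**Figure D5:**
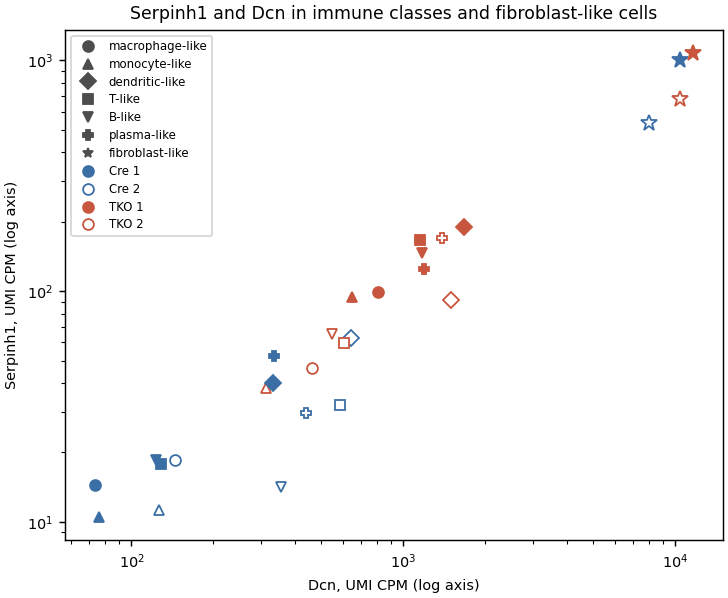
Serpinh1 against Dcn (UMI CPM, both axes log) in 6 immune classes and fibroblast-like cells; each point is 1 class in 1 library, coloured by genotype, and open points are the second replicate. In macrophage-like cells Serpinh1 is at 14.5 and 18.6 in Cre and 99.3 and 46.3 in TKO while Dcn is at 73.6 and 144 against 808 and 460.

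Macrophage-like cells held more Plod1 than fibroblast-like and smooth muscle-like cells, and overlapped those classes for P4ha1 and Plod3. None of these genes passed in macrophage-like cells. Plod1 was at 75.0 and 69.6 UMI CPM in Cre and 67.8 and 61.7 in TKO, P4ha1 at 67.7 and 83.6 against 92.6 and 70.0, and Plod3 at 41.0 and 11.6 against 44.5 and 38.0. In smooth muscle-like cells Plod2 was at 258 and 161 against 165 and 141 UMI CPM, with Cre 2 just below the higher TKO value. On the TMM scale of the test both TKO libraries lay below both Cre libraries (−0.55 ± 0.29, adjusted p = 1.00, edgeR), as in 14.5% of all genes. No gene passed (0% of 8258 genes called, 2.82% at an unadjusted p below 0.05).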

How the data were processed

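The authors deposited 4 bulk tables of whole-number counts, with genes named by symbol. The build GRCm38 and the tools Subread 1.5.2 with featureCounts, STAR 2.5.2b and Trimmomatic 0.36 are named per the submitters' processing notes, and the strand setting and the annotation are not given in the sources used here, so overlapping genes and near-identical copies are uncertain. The deposited single-cell matrices hold counts of UMIs for each barcode, from Cell Ranger per the file headers and 10x 3′ chemistry per the labels' protocols. The titles of the stripped samples say nonstripped while their other fields say stripped, and the other fields were followed. A further 1 column of sample values has no matching label and was left aside, and the row with no gene name (at most 0.0025% of a library) was left out.

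Each bulk comparison used its own table, with filterByExpr (minimum count 10), TMM scaling, and edgeR 4.0.16 (R 4.3.3) quasi-likelihood tests with Benjamini-Hochberg adjustment at 0.05. CPM values are counts divided by TMM-scaled library size. Cells with at least 500 genes and 1000 UMIs and at most 15% mitochondrial UMIs were kept. Cells with a Scrublet score above 0.2 were removed; the automatic threshold had marked 0 cells, so 0.2 was chosen after seeing the data. Cells were clustered with Leiden in scanpy 1.11.5, with no correction for library. UMIs were summed per library and class (at least 20 cells in each library) and tested with edgeR in the same way. A class was named from markers, so its makeup is rebuilt here and is not the authors' own annotation. Scripts were tested on simulated data.

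Named genes are the 10 enzymes, and from each other list up to 4 genes per direction with the smallest adjusted p among those that passed, or 3 with the smallest p where none did, of which the text prints some. The 10 genes and the lists were chosen with earlier results of these data known, so list counts are not independent support. Alternatives were DESeq2 1.42.0, RLE factors, no filter, a joint fit of 23 libraries, leaving out each library, at least 2000 UMIs per cell, doublets kept and a replicate block. Single fibroblast-like clusters and the doublet threshold were added after seeing the data.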

Additional observations from a re-analysis of the deposited data

How the results depend on the processing

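The number of genes called in the genotype comparisons moved with the tool. In non-stripped aorta it was 18 with edgeR as described, 796 with DESeq2, 766 with no filter, 696 in the joint fit and 0 to 486 without 1 library. In stripped aorta it was 4, against 577, 64, 381 and 0 to 30, and in fibroblasts 10, against 417, 682, 66 and 3 to 10. With anti-IL-9 it was 5277, and 3516 to 4793 without 1 library. Of the 10 enzyme genes, 0 were called in fibroblasts and 2 with DESeq2 or no filter (Loxl3 and Plod2). With anti-IL-9, 3 were called, 9 with no filter, 8 in the joint fit and 0 to 6 without 1 library. With no filter 1 gene passed in each of 2 contrasts of genotype effects, Loxl3 (0.96) in fibroblasts against non-stripped aorta and Plod2 (0.85) in fibroblasts against stripped aorta. Signs turned for Lox in non-stripped aorta (−0.04 without Cre replicate 3, −0.13 without TKO replicate 3), for Plod1 there (−0.03 without TKO replicate 1), for Loxl3 and Plod1 in stripped aorta (0.01 each without Cre replicates 1 and 2; 0.13 and 0.17 without TKO replicate 2, with Loxl2 at 0.04), for Lox in fibroblasts (−0.0025 without TKO replicate 3), and with anti-IL-9 for Plod2 (0.19 without IgG replicate 2) and P4ha1 (0.01 without anti-IL-9 replicate 1). Without other libraries these differences reached −0.40 for Loxl2, −0.18 for Loxl3 and −0.33 for Plod1 in stripped aorta, 0.31 for Lox in fibroblasts, and −0.82 for Plod2 and −0.68 for P4ha1 with anti-IL-9. The cause was not tested.

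Over the single-cell class sums 7 calls were made, 3 with DESeq2, 12 with no filter, 3 in cells of at least 2000 UMIs and 3 to 14 without 1 library. Plod3 in lymphatic endothelial-like cells was at 54.4 UMI CPM in cells of at least 2000 UMIs. The single-cell libraries share replicate numbers 1 and 2, and only numbers: with a replicate block 9 calls were made over class sums and 0 over whole libraries, and deviations of same-numbered libraries correlated at 0.056 to 0.383. No paired analysis was possible for the bulk tables because their labels carry no shared replicate numbers. In the bulk comparisons the median log2 fold change of all genes under the other scalings and filters was at most 0.08 (anti-IL-9, no filter). Depth limits Loxl4, with 130 UMIs in all single-cell libraries.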
